A study of Oncorhynchus mykiss with 12 samples.

Results

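The 100 bright probes whose levels varied most between pools of head kidney from the same feeding group were described, out of 12884 probes for rainbow trout (Oncorhynchus mykiss) transcripts on the array. A level is the log2 processed signal of a probe minus the 75th percentile of its array. A level of 0 therefore stands for a spot brighter than 75% of the trout probes on that array, which was between 723 and 2421 intensity units on the 12 arrays. The 100 probes were chosen from 3109 probes with a mean level above 0. The 100 probes with the highest control mean were set aside, and the means of T3 and PTU fish had to lie within 0.5 of the control mean. This left 1652 candidates, and the 100 with the largest standard deviation (SD) after subtraction of each group's mean were taken. The size of the spread and the nearness of the group means therefore come from the choice, and they are given here as a description without a test.

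The samples were 12 pools of 2 juvenile fish each, with 4 pools in each group. Control fish received no agent. The feed of T3 fish held 20 µg of T3 (triiodothyronine, the active thyroid hormone) per g, and that of PTU fish held 5000 µg of PTU (propylthiouracil, which blocks thyroid hormone synthesis) per g, and feeding lasted 7 days. The fish came from 6 aquaria of 10 fish, and the labels do not say which aquarium each pool came from. Pools that shared an aquarium are not independent replicates of a feed. Slide 1 carried the arrays of controls and T3 fish and slide 2 those of PTU fish, so PTU and slide cannot be told apart.

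The head kidney of bony fishes forms blood cells and lymphocytes and also holds the steroid and catecholamine producing cells that in mammals make up the adrenal gland. A pool of this tissue is a mixture of many cell types from only a pair of animals, and its transcript levels carry the differences between those animals. In such bulk samples, fewer cells of a type and less RNA per cell cannot be told apart. No gene is given beside a probe ID in the files, and 0 IDs were found in the trout gene table used for names. The probes are therefore given by their IDs, and tissue markers could not be looked up.

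The within-group SD of the 100 probes ran from 0.74 to 2.15 with a median of 0.85 on the log2 scale, against a median of 0.42 over the candidates. Their mean levels ran from 0.08 to 6.32. In the median probe the brightest pool of a group exceeded the dimmest by 3.39-fold in controls, 3.13-fold in T3 fish and 4.75-fold in PTU fish. The last probes inside the limit were JC003151 and JC006838, with SDs of 0.745 and 0.741, and the first outside were JC009593 and JC005180, with 0.741 and 0.739. The scanner software marked all 1200 spots of the 100 probes as well above background and 0 as saturated.

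The 100 probes were not 100 separate measurements. Each trout probe had a counterpart numbered 6442 higher or lower, which is the number of trout probes over 2, and these counterparts read nearly the same. Over all 6442 such pairs the median difference in level was 0.113, against 2.63 for probes with adjacent numbers. In the 1539 pairs with both probes bright, the deviations from the group means correlated over the 12 arrays with a median r of 0.989, and 97.9% of these pairs had an r above 0.9. Adjacent bright probes had a median r of 0.425. No source used here states that the array was printed in duplicate, so the pairing is read from the IDs and the values.

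The 100 probes fell into 60 such pairs, 40 with both probes chosen and 20 with only 1. The counterparts of the 20 are a second reading of the same pools from another spot, although they are not independent of the choice, since the rule ranked 14 of them too. In all 20 the counterpart deviated most in the same pool, and r between the counterparts ran from 0.960 to 0.999. Those 14 met the other conditions but ranked below the first 100, and the remaining 6 missed another condition by their own mean values. The spots of a pair lay a median of 69.4 rows and columns apart on a grid of 192 rows and 82 columns. The median SD between pools of the mean of both spots was 0.81. The median SD between the spots of a pair was 0.063, after each spot's own group means were removed. Constant offsets between the spots are removed with them. The first exceeded the second by at least 4.83-fold in each of the 60 pairs. The pairs were chosen for a large spread between pools, so this ratio is a description. Hybridisation and labelling are shared by both spots, and their part in the spread was not tested.

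A single pool held a median of 37.2% of a probe's sum of squared deviations, between 17.6% and 64.4%. PTU replicate 3 was the pool of largest deviation for 38 of the 100 probes, against 15.4% of the candidates. Control replicate 2 was so for 18 probes, against 34.6% of the candidates. PTU replicate 1 followed with 12 probes, against 5.02% of the candidates, and T3 replicate 1 with 10, against 14.3%. PTU replicate 2 and control replicate 4 led for 7 each, against 2.72% and 7.26%. T3 replicate 3 led for 3 probes, T3 replicates 2 and 4 for 2 each, control replicate 1 for 1, and PTU replicate 4 and control replicate 3 for 0. Counted by pair, PTU replicate 3 led for 22 of 60, control replicate 2 for 12 and PTU replicate 1 for 8.

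The PTU pools held 50.9% of the sum of squares of the 100 probes, against 32.1% over the candidates. Controls held 24.8% against 41.7%, and T3 pools 24.3% against 26.3%. The SD was largest in the PTU group for 52 probes, in controls for 29 and in T3 for 19. Over the candidates these shares were 23.6%, 53.0% and 23.4%. The median SD was 1.03 in PTU, 0.79 in controls and 0.71 in T3, against 0.33, 0.45 and 0.36 over the candidates.

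Some arrays stand apart, and their part in these values was not tested. The dimmest 20% of the trout probes were raised on PTU replicate 3, T3 replicate 1 and control replicate 2. Measured from each probe's median over all 12 arrays, their median shift was 2.12, 2.67 and 1.88, against -0.93 to 0.19 on the 9 other arrays. The candidates as a whole lay below their group mean there, by medians of -0.20, -0.34 and -0.41 in the same order. These 3 arrays led for 66 of the 100 probes and for 64.3% of the candidates. They held 40.3% of the sum of squares of the 100 probes, against 43.7% over the candidates. Without them the median SD of the 100 probes was 0.62, against 0.31 over the candidates; 92 of the 100 lay above that candidate median and 31 lay below 0.5. These 9 arrays had also taken part in the choice, so the higher SD on them is a description. The PTU share of the sum of squares was then 49.0%, against 35.2% over the candidates. Only 26 of the 100 were among those that the rule chose from the 9 other arrays. The window for the group means and the other conditions were applied anew there, so a probe could drop out without a small SD.

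The deviations of the 100 probes fell into 7 co-varying blocks of at least 4 probes, formed by average linkage at a mean Pearson r of 0.7 over the 12 arrays. The blocks held 72 probes, and 28 probes from 17 pairs joined none. Counterparts enter a block together, so the number of pairs is given beside the number of probes. The blocks were formed from the same values as the deviations given for them, which are a description. Each deviation is taken from a group mean that includes the extreme pool. Such a pool therefore puts other pools of its group on the opposite side of the mean by construction. Without the 3 arrays with raised dim probes, the median SD of blocks 4, 5 and 6 was 0.59, 0.53 and 0.80, against 0.78, 0.78 and 0.96 over all 12, and that of block 7 was 1.88 in both cases. PTU replicate 3, where blocks 4, 5 and 6 deviated most, is among the arrays left out, so their drop follows from the omission. From the 9 other arrays the rule chose 3 of 6 probes of block 4, 2 of 5 of block 5, 0 of 4 of block 6 and 1 of 4 of block 7. JC001595 of block 6 and JC002101 of block 7 then had SDs of 0.76 and 1.95, above the 0.63 of JC008561, which was chosen. Both thus missed a condition of the rule other than the SD.

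The widest spread belonged to block 7, the pairs JC002101 with JC008543 and JC002123 with JC008565. JC002101 lay at -1.28, 0.52, 0.55 and 0.69 in control replicates 1 to 4, at 2.75, 0.44, -1.65 and -2.23 in T3 replicates 1 to 4, and at 2.84, -2.85, 2.57 and -0.57 in PTU replicates 1 to 4. Control replicate 1, T3 replicates 3 and 4 and PTU replicate 2 were low, and T3 replicate 1 and PTU replicates 1 and 3 were high, so the T3 and PTU groups held both high and low pools and controls 1 low pool. JC002101 was 31.6-fold brighter in the highest than in the lowest T3 pool and 51.8-fold in PTU, but 3.92-fold in controls. Its group means were 0.12 ± 0.94 (SD, n = 4) in controls, -0.17 ± 2.26 in T3 and 0.50 ± 2.72 in PTU.

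JC002123 was a brighter probe with a similar course. It lay at 1.19, 3.89, 3.93 and 3.67 in control replicates 1 to 4, at 4.23, 3.81, 1.77 and 1.71 in T3 replicates 1 to 4, and at 5.19, 0.44, 4.38 and 2.97 in PTU replicates 1 to 4. The same 4 pools were lowest in their groups as for JC002101. The pair means of JC002101 and JC002123 correlated with an r of 0.936 over the 12 arrays. Within each group r was 0.988 in controls, 0.942 in T3 and 0.983 in PTU, over 4 arrays each.

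Block 3 held 7 probes from 4 pairs and was set by PTU replicate 1, in which all 7 deviated most. JC002137 lay at -1.97 in PTU replicate 1, against 2.35, 2.67 and 3.69 in PTU replicates 2 to 4. In controls it lay at 3.07, -0.83, 2.63 and 2.14, with control replicate 2 low, and in T3 at 1.17, 2.23, 3.37 and 1.99, with no pool apart to that degree. Its counterpart JC008579 read -1.97 in PTU replicate 1 and -0.82 in control replicate 2. JC001962 and its counterpart JC008404 were at 0.50 and 0.42 in PTU replicate 1, with 4.01 to 4.47 and 3.99 to 4.48 in the other PTU pools, a 15.7-fold and a 16.8-fold range. The mean deviation of the block was -2.62 on PTU replicate 1, from -3.66 to -1.67, and 0.62 to 1.22 on the other PTU arrays. PTU replicate 1 is not among the 3 arrays with raised dim probes, and the median SD of block 3 was 1.36 without those 3 against 1.23 with them. Without those 3, however, the rule chose only 2 of its 7 probes. On the remaining arrays JC002137 and JC001962 had SDs of 1.78 and 1.36, above the 1.00 of JC002133, which was chosen. Both thus missed a condition of the rule other than the SD.

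Block 1 was the largest, with 25 probes from 15 pairs, and its members were among the dimmer of the 100, with a median mean level of 0.72. Their mean deviation was 2.04 on PTU replicate 3 and 1.05 on T3 replicate 1, and all 25 lay above the group mean on both. All 25 lay below it on T3 replicate 4 and on PTU replicates 1 and 2, with means of -0.63, -0.79 and -1.01. PTU replicate 3 was the pool of largest deviation for 21 of them. JC000166 lay at 3.37 on PTU replicate 3 against -0.93, -1.15 and 0.03 on PTU replicates 1, 2 and 4, and at 1.73 on T3 replicate 1 against -0.40 to 0.38 on the other T3 arrays. Its control levels ran from -0.69 to 0.58. JC008282 lay at 3.43 on PTU replicate 3, with -0.73 to 0.05 on the other PTU arrays and -0.13 to 0.47 in controls, and its counterpart JC001840 at 3.64, with -0.68 to 0.06 and -0.21 to 0.47.

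PTU replicate 3 and T3 replicate 1, the highest pools of block 1, are among the 3 arrays with raised dim probes. The mean deviation of the block on the third such array, control replicate 2, was 0.34, with 21 of 25 probes above the group mean. Without these arrays the median SD of the block was 0.44 against 0.99 with them. The highest pools of the block are among the arrays left out, so this drop follows from the omission and is a description. Of its 25 probes, 0 were among those the rule then chose. The scanner software marked 11 of the 1200 spots of the 100 probes as outliers, 9 of them on PTU replicate 3, and 9 of the 10 probes with such a mark were in block 1. Over all trout probes it marked 61 on PTU replicate 3 and 232 on T3 replicate 1, where 0 of the 100 were marked, and 0 to 19 on each of the other arrays. For JC000166 the marked spot deviated by 3.04 and its unmarked counterpart JC006608 by 2.74. The probes of block 1 did not all deviate to the same degree, and their deviations on PTU replicate 3 ran from 0.59 to 3.04. JC000180, a brighter probe, lay at 6.03 on PTU replicate 3 and at 1.58 to 3.04 on the other PTU arrays, a 21.9-fold range. It lay at 2.75 to 3.50 in controls and 2.75 to 4.16 in T3.

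Block 2 held 21 probes from 14 pairs, with a median mean level of 2.52. Its pair means had a median r with each other of 0.961 in controls, 0.833 in T3 and 0.608 in PTU, over 4 arrays each. Its mean deviation was -1.26 on control replicate 2 and -0.86 on T3 replicate 1, where all 21 probes lay below the group mean. All 21 lay above it on control replicates 1 and 4, by 0.68 and 0.75, on T3 replicate 4 by 0.50 and on PTU replicate 1 by 0.60. JC000716 lay at 3.17 on control replicate 2 against 5.80, 4.69 and 5.56 on control replicates 1, 3 and 4. In T3 it lay at 4.40, 5.29, 5.57 and 5.65, lowest in replicate 1, and its PTU levels of 4.55 to 5.04 differed little. JC000454 followed at 1.37 on control replicate 2 against 2.76 to 3.88 in the other controls. JC003367 of this block varied in PTU too, at 4.95, 3.14, 3.55 and 3.71 in replicates 1 to 4. The pattern of block 2 was common on the array. Median deviations of the candidates as a whole were -0.41 on control replicate 2 and -0.34 on T3 replicate 1, which are arrays with raised dim probes. They were 0.27 and 0.21 on control replicates 1 and 4, but -0.01 on PTU replicate 2, where the block mean was -0.36. Outside the 60 pairs, 199 of 2989 bright probes followed the mean deviation of block 2 with an r above 0.9, and 185 of them had met the other conditions of the rule. The corresponding number was 23 for block 1, 26 for block 3, 8 for block 4, 4 each for blocks 5 and 7 and 0 for block 6. Without the 3 arrays the median SD of block 2 was 0.49 against 0.76, and the rule then chose 2 of its 21 probes. Its lowest pools, control replicate 2 and T3 replicate 1, are among the arrays left out, so this drop also follows from the omission.

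In blocks 4, 5 and 6 PTU replicate 3 was the pool of largest deviation for all 6, for 4 of 5 and for all 4 probes, and the exception in block 5 was JC000228. Block 4 (6 probes from 3 pairs) lay 1.49 above the group mean there and 1.18 below it on PTU replicate 1, a mean deviation of -1.18. It also lay 0.84 above on control replicate 2. JC005497 of this block lay at 3.63 on PTU replicate 3 and 0.84 on PTU replicate 1, with 2.07, 3.54, 2.72 and 1.35 in controls and 1.37 to 2.41 in T3. Block 5 (5 probes from 3 pairs) ran the other way, with a mean deviation of -1.55 on PTU replicate 3 and 0.95 on control replicate 4. JC009083 of block 5 lay at 2.71 on PTU replicate 3, against 4.59 to 5.04 on the other PTU arrays. JC005516 lay at -0.96 there, against 1.31 to 1.58.

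Block 6 (4 probes from 2 pairs) held JC001595 and JC008037, the brightest pair of the 100. JC001595 lay at 6.63, 6.08, 6.32 and 6.22 in control replicates 1 to 4, at 6.03, 6.98, 4.78 and 6.48 in T3 replicates 1 to 4 and at 7.74, 6.81, 4.79 and 6.66 in PTU replicates 1 to 4. T3 replicate 3 and PTU replicate 3 were low, and controls stayed within 1.47-fold of each other. T3 replicate 3 is not among the arrays with raised dim probes. The pair means of JC001590 and JC001595, which are numbered 5 apart, correlated with an r of 0.997 over the 12 arrays. JC001593, numbered between them and also among the 100, correlated with them at only 0.366 and 0.381 and joined no block. No bright probe outside the 60 pairs followed block 6 with an r above 0.9.

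Among the probes in no block, JC003017 and its counterpart JC009459 varied most. JC003017 lay at -0.77, 0.96, 1.02 and 2.94 in control replicates 1 to 4, at 2.13, -0.84, 3.21 and 1.36 in T3 replicates 1 to 4, and at 0.75, 2.53, 0.65 and 2.20 in PTU replicates 1 to 4. Control replicate 1 and T3 replicate 2 were the low pools, and the range was 13.1-fold in controls, 16.6-fold in T3 and 3.69-fold in PTU. JC008035 was high in single pools, at 5.97 on control replicate 4 against 2.73 to 3.48 in the other controls, and at 5.45 on T3 replicate 4 against 3.28 to 3.63. In PTU it lay at 5.08 and 4.94 in replicates 1 and 2 and at 2.75 and 3.22 in replicates 3 and 4. JC003713 was low on control replicate 4, at -1.40 against 0.43 to 1.33 in the other controls. It was also low on T3 replicate 1, where it lay at -1.20 against 0.09 to 0.62 on the other T3 arrays. The spread was most even in JC009664, JC003222 and JC003367, in which the leading pool held 17.6%, 18.7% and 19.8% of the sum of squares. JC003222 lay between 0.76 and 2.44 in controls, 0.76 and 2.64 in T3 and 1.24 and 2.71 in PTU.

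Blocks could also oppose each other. The mean deviations of block 1 correlated with those of block 4 at an r of 0.750 and with those of blocks 5 and 6 at -0.709 and -0.730, over 12 arrays. Blocks 1 and 4 are thus not sharply apart. The pair means of JC002373 of block 1 and JC002374 of block 4, numbered 1 apart, correlated at an r of 0.939. Inside block 1 the lowest r between pair means was 0.412. Block 4 opposed blocks 5 and 6 at -0.819 and -0.830. Blocks 3 and 7 stood at -0.634 to each other. The lowest r between 2 of the 100 probes was -0.924, between JC000180 of block 1 and JC005516 of block 5. Over the 1770 pairings of the 60 pair means the median r was 0.00067, with 13.0% above 0.7 and 5.88% below -0.7. Over the 883 pairs that held a candidate the median r was 0.338, with 17.5% above 0.7 and 1.68% below -0.7. The 60 pairs thus shared less of a common direction than the candidates. All these values share the scaling of each array. Within groups, over 4 arrays each, the pairings of block 1 had a median r of 0.487 in controls, against 0.958 in T3 and 0.967 in PTU. The mean deviation of block 1 was 1.05 on T3 replicate 1 and 2.04 on PTU replicate 3, but ran from -0.38 to 0.34 in controls. An r over 4 arrays weighs such a pool heavily, so the contrast between groups is not read as an effect of the feed.

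In the lower numbering of the IDs, the pairs of blocks 3 and 7, among them the 3 pairs with the largest SD, were numbered from 1962 to 2191. This stretch was defined from those blocks after the values were seen, so that their 6 pairs lie in it by construction, and it has no test. Of the other 54 pairs, 3 (5.56%) lay in it, close to the 3.57% of all pairs, 4.19% of those with a candidate and 4.97% of those with a bright probe. Of 13 pairs outside the 60 that followed block 3 with an r above 0.9, 10 were numbered in the same stretch. In 12 of the 13, at least 1 such probe had a T3 mean more than 0.5 above control, outside the window of the rule. Whether their SD reached the limit of the 100 was not counted. What the numbering stands for is not given in the sources used here.

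The treatments were compared over the whole table, although the rule had already held the group means of the 100 probes close to each other, so that nothing is read from their counts. limma called 0 of 11762 tested probes (0%) at an adjusted p under 0.05 for T3 against control, and 0 of the 100. It called 0 (0%) and 0 of the 100 for PTU against control, and 0 (0%) and 0 of the 100 for T3 against PTU. At an unadjusted p under 0.05 it counted 632, 1234 and 810 of all tested probes. The median standard error of a log2 difference between T3 and control was 0.533 for the 100 probes, against 0.435 for all tested probes. It is computed from the spread by which the 100 were chosen, so the larger value follows from the choice. The rule also set aside 354 of the 454 bright probes, outside the 100 with the highest control mean, whose SD was at least 0.741. Their T3 or PTU mean lay more than 0.5 from the control mean.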

How the data were processed

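Head kidney RNA of 12 pools was read in 1 colour on custom Agilent arrays, 1 per pool. The processed signals deposited by the authors are background-corrected intensity values from Agilent Feature Extraction 10.7.3.1, per the file headers, and are not scaled between arrays. The authors' deposited value table holds a fraction, each probe's share of its array's summed processed signal, as read from the values. It held 0 columns from other samples.

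The 100 probes, blocks and lists were chosen with earlier results of these data known. Levels, deviations and correlations were computed in Python 3.11.15. One limma fit of all 3 groups (limma 3.58.1, R 4.3.3) gave two-sided tests with Benjamini-Hochberg adjustment on 11762 probes well above background on at least 3 arrays of a group. Spots marked as outliers were left out of that fit but not of the rule. Both steps were tested on simulated data with planted shifts and noise drawn separately for each probe. Such data lack the likeness of counterparts and the shifted arrays, so they check the code only. Probes were named by rule: the 10 with the largest SD, up to 3 per block, the largest deviation in each pool, those at the limit, the most evenly spread and the most opposed. Gene and cell type lists were not used, since IDs could not be matched. The number of arrays limits the precision. The p-values judge a difference between group means against the spread between pools, and these pools may share aquaria. Alternatives were other scalings, signals, filters, spreads and windows and the omission of arrays; averaging counterparts was added after seeing the data.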

Additional observations from a re-analysis of the deposited data

Results flagged for a closer look

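In 126 groups of 4 values examined, 15 held a pool whose gap to the nearest other was large against the range of the group, where chance alone gives about 1 in 20. Probes of a pair are not independent, and the probes were chosen for their spread, so the number is not set against chance.

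In block 7, control replicate 1 stood apart from the other controls, with a mean deviation of -1.74. The same pool stood apart for each probe of that block, at -1.28 for JC002101, -1.41 for JC008543, 1.19 for JC002123 and 1.23 for JC008565. In block 3, PTU replicate 1 stood apart with a mean deviation of -2.62, and so it did for JC001962 at 0.50 and JC008404 at 0.42. JC009083 stood apart on control replicate 4 at 4.75, JC008035 on T3 replicate 4 at 5.45, JC005516 on PTU replicate 3 at -0.96 and JC009593, the first probe outside the limit, on PTU replicate 1 at 2.17.

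The shift of the dimmest probes stood apart on control replicate 2 at 1.88 and on T3 replicate 1 at 2.67. On control replicate 2 the counterparts among bright probes also differed more than on the other controls, by a median of 0.122 against 0.057 to 0.062.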

How the results depend on the processing

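Which probes the rule chose depended on the processing, and the cause was not tested. Of the 100, 73 were also chosen after quantile normalization, 64 from the deposited table, 65 after normexp, 27 after median scaling (which by construction admits dimmer probes), 56 when ranked by the median absolute deviation, 26 with a window of 0.25, 22 with a window of 1 and 26 without the 3 arrays with raised dim probes. With 1 array omitted, 45 (without PTU replicate 3) to 81 (without T3 replicate 4) were chosen, with 53 without control replicate 2, 56 without control replicate 4, 53 without PTU replicate 1 and 63 without PTU replicate 2. Only 1 of the 100, JC003367, was chosen in each of the 12 omissions, while JC002101 was chosen in 3 and JC002137 in 5 of them. The window for the group means was applied anew in each omission, so a probe could drop out without a small SD. The largest block then held 13 (without control replicate 2) to 43 (without PTU replicate 3) probes, and 38 without T3 replicate 2, against 25. PTU replicate 3 led for more probes than any other pool, 31 to 38, under each scaling tried. Ranking by the median absolute deviation put control replicate 2 first with 32 probes, as did omission of PTU replicate 1, 2 or 3, and without the 3 arrays control replicate 4 led with 23. The leading pool's share of the sum of squares was 14.2% with the median absolute deviation and 16.6% to 27.3% with 1 array omitted, against 21.2%. It belonged to PTU replicate 1, not 3, after median scaling and normexp, from the deposited table, with the median absolute deviation and without control replicate 2, T3 replicate 3 or T3 replicate 4, and to control replicate 2 without PTU replicate 1 or 3. With counterparts averaged, 89 of the 100 were chosen.

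In every setting run, limma called 0 probes for T3 against control. Its calls for PTU against control and T3 against PTU were 7 and 4 after quantile normalization, 5 and 7 with array weights, 3 and 2 without the 3 arrays, and 0 to 4 and 0 to 3 with 1 array omitted (highest without PTU replicate 3). None of these was among the 100. With the replicate number as a block it called 0 in each comparison, and the rule kept 75 of the 100, with a largest block of 31. Same-numbered arrays correlated between -0.44 and 0.361, above 0.1 in 4 of 12 pairings, so the numbers are not taken to pair the pools.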

Other observations

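In 3 of the 4 pools that were low in block 7 another pair was at background, and in the other, control replicate 1, it was low. JC002003, with its counterpart JC008445, was left out of the 100 because its group means differ. Its level was 5.16, 5.35 and 4.67 on control replicates 2, 3 and 4 but -0.69 on control replicate 1. It was 3.76 and 4.99 on T3 replicates 1 and 2 but -7.77 and -9.01 on T3 replicates 3 and 4, and 5.57, 4.87 and 3.93 on PTU replicates 1, 3 and 4 but -9.83 on PTU replicate 2. On the 3 lowest arrays neither spot was well above background, with processed signals of 2.62 to 3.31 for JC002003 against 16582 to 115243 on the 8 arrays where it was high. These signals are not scaled between arrays. As levels, the 8 arrays lay between 3.76 and 5.57, and control replicate 1, at a signal of 607, lay at -0.69. The within-group SD was 6.25 for JC002003 and 6.34 for JC008445.

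A search chosen after seeing this pair found 25 probes from 16 pairs that were not well above background in 1 pool and above a level of 3 in another pool of the same group. Of the 16 pairs, 11 were numbered from 1962 to 2191, the stretch of blocks 3 and 7, which holds 3.57% of all pairs. JC002003, which prompted the search, is among the 11. The stretch and the search were both defined after the values were seen, so the count is a description. JC001977 and JC001980 were not well above background on control replicate 1, T3 replicates 3 and 4 and PTU replicate 2, the pools in which JC002101 and JC002123 were also low, and reached 4.11 and 4.07 on other control arrays. JC001981 was bright on T3 replicate 1 and PTU replicate 1, at 4.25 and 4.62, and not well above background on the other T3 and PTU arrays. Its counterpart JC008423 read 4.15 and 4.53 on the same arrays, but was well above background on PTU replicate 3 too. No treatment separates these pools.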
